A study of Mus musculus with 6 samples.

Results

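The cytosolic ribosomal protein genes of MLE12 cells, an immortalized mouse lung epithelial line (ATCC CRL-2110, strain given as C57BL/6J), were compared between control and knockdown libraries. Members were the protein-coding rows of the count table whose symbol begins with Rpl or Rps and a digit, or is Rplp0, Rplp1, Rplp2 or Rpsa, without the Rps6k kinases and Rps19bp1. They numbered 93 of 54532 genes, of which 46 encode proteins of the large (60S) subunit, 31 proteins of the small (40S) subunit and 8 paralogs, and 8 carry a pseudogene name although they are annotated as protein-coding. The Ctrl shRNA group (Ctrl 1 to Ctrl 3, n = 3) received a lentivirus with an empty construct. The Idh3α shRNA + Slc25a1 shRNA group, here called knockdown (knockdown 1 to knockdown 3, n = 3), received lentiviruses against Idh3α, a subunit of the mitochondrial isocitrate dehydrogenase, and against Slc25a1, the mitochondrial citrate carrier, at the same time. Each virus was used at an MOI of 50, cells were washed at 16 h and then kept in culture for 80 h. Knockdown cells thus received 2 viruses and control cells 1. The shRNAs were given together, so the parts of the 2 targets cannot be told apart. All 6 samples were whole-cell total RNA from the same line, and no source states that they came from separate cultures, so p-values measure the spread between these samples, which may be technical.

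A ribosome is built from ribosomal RNA and a single copy of nearly every ribosomal protein, so a growing cell makes these proteins in closely matched amounts. Their mRNAs are short, abundant and begin with a run of pyrimidines, the 5' terminal oligopyrimidine (TOP) motif, through which mTORC1 and LARP1 tie their translation to nutrient supply. Mammalian genomes carry many processed copies of these genes, which makes their reads hard to place. The comparison asked whether the ribosomal protein mRNAs differed when mitochondrial citrate use and export were targeted together.

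Total counts ranged from 27273502 to 28535653 per library. Idh3a stood at 79.8, 137 and 92.98 CPM in Ctrl 1 to 3 and 58.5, 57.9 and 55.5 CPM in knockdown 1 to 3, and Slc25a1 at 103, 98.7 and 108 CPM in Ctrl 1 to 3 and 68.9, 69.6 and 62.95 CPM in knockdown 1 to 3, where CPM is the count scaled to library size with TMM factors. Every knockdown library was below every control library for both targeted genes. Of 12 lung epithelial markers, 8 averaged at least 10 counts per library, while the surfactant genes Sftpa1 and Sftpd had 2 and 0 counts in all. The summed level of those 12 markers was 1582 to 1709 CPM in the control and 1645 to 1767 CPM in the knockdown libraries. Of the 8 that passed the filter over all samples, 3 had every control above every knockdown library, beside 10.7% of all genes, and 1 had the opposite order, beside 14.7%. Without Ctrl 2, edgeR called 1 of 10 tested epithelial markers lower, beside 0.675% of all genes, and DESeq2 called 2 lower, beside 2.65%. The 3 endothelial markers together stayed under 1 CPM in every library. Ctrl 2 stood apart from the other libraries: 16681 genes had a count there, against 19902 to 23147 elsewhere, and 6.49% of its counts were mitochondrially encoded, against 1.57% to 1.80%. Fold changes below are therefore given with and without Ctrl 2.

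Part of the listed start sites carry the run of pyrimidines that names the TOP class. Of the members, 65 had an entry in the RefSeq start-site table (GRCm38.p6), and 30 of them (46.2%) had a C followed by at least 4 C or T within 5 bases of a listed start. The run began exactly at a listed start in 3 of the 65 (4.62%), against 1.01% of 9816 other tested protein-coding genes. The wider criterion held for 23.5% of those other genes and for 21.2% of all 27025 symbols in the table. Only the sense strand was read, since the motif is a property of the mRNA end. The following windows of 30 bases have the listed start at position 11 and the run of C and T in capitals. They were chosen to show runs in both subunits and a member, Rplp0, in which no such run was found.
Rps6 (40S), chr4:86857348-86857377, minus strand: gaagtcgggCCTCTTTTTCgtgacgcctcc
Rps15a (40S), chr7:118116128-118116157, minus strand: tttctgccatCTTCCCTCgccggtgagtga
Rpl28 (60S), chr7:4792955-4792984, plus strand: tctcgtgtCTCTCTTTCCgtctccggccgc
Rpl38 (60S), chr11:114668570-114668599, plus strand: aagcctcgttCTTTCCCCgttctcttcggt
Rplp0 (60S stalk), chr5:115559457-115559486, plus strand: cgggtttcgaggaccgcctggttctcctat
Rps15a and Rpl38 are among the 3 members in which the run begins exactly at a listed start. These windows describe letters only, and translation was not measured here.

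Ribosomal protein genes took 3.70%, 14.7% and 5.12% of all counts in Ctrl 1, Ctrl 2 and Ctrl 3, and 3.71%, 2.81% and 3.54% in knockdown 1, 2 and 3. The 2 groups overlapped, because knockdown 1 was marginally above Ctrl 1. The group means were 7.84% ± 5.98 (SD, n = 3) for Ctrl shRNA and 3.35% ± 0.48 (SD, n = 3) for knockdown. Without Ctrl 2 the control mean was 4.41% ± 1.00 (SD, n = 2). The difference between the groups was smaller than the spread between the control replicates with Ctrl 2, and close to it without. An exact permutation test of 3 samples against 3 cannot go below p = 0.1.

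**Figure D1:**
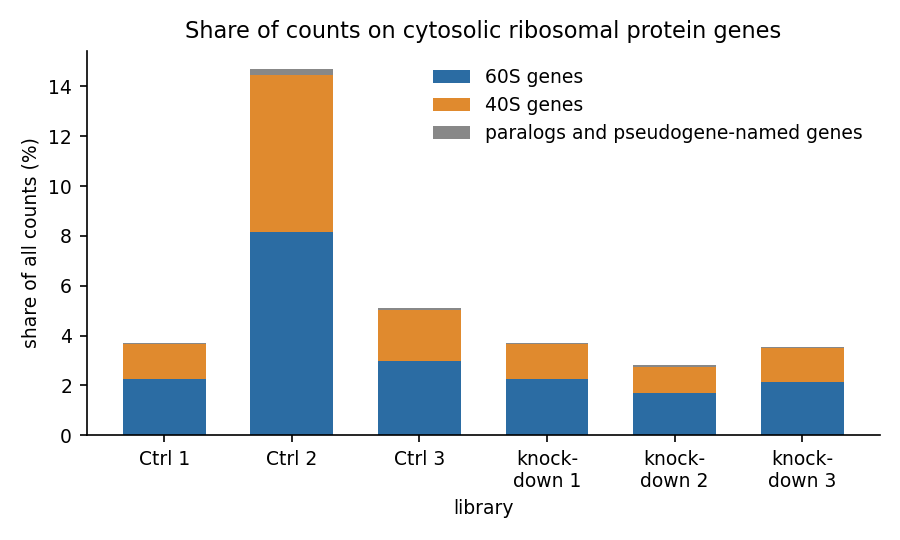
Share of all counts (%, y axis) on cytosolic ribosomal protein genes in each library (x axis), split into 60S genes, 40S genes and the remaining members. Ctrl 2 reaches 14.7%, Ctrl 3 5.12%, and the other 4 libraries lie between 2.81% and 3.71%.

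Large and small subunit genes were highest and lowest in the same libraries. The 60S genes held 2.25%, 8.17% and 2.98% of the control counts and 2.25%, 1.71% and 2.13% of the knockdown counts. The 40S genes held 1.41%, 6.29% and 2.06% of the control counts and 1.41%, 1.05% and 1.36% of the knockdown counts. The ratio of 60S to 40S counts was 1.60, 1.298 and 1.45 in the control libraries and 1.59, 1.62 and 1.56 in the knockdown libraries. The ratio was thus lowest in Ctrl 2 and next lowest in Ctrl 3, the libraries in which both subunits were highest.

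The highest and lowest libraries were the same for most members. Of the 88 members that passed the filter on low counts, 85 had their highest CPM in Ctrl 2, 77 had their second highest in Ctrl 3 and 72 had their lowest in knockdown 2. Among the other tested genes, 34.1% were highest in Ctrl 2 and 15.8% lowest in knockdown 2, while for members the shares were 96.6% and 81.8%. Measured as log2 CPM minus the gene's own median over the 6 libraries, the median member stood at -0.01, 2.56 and 0.42 in Ctrl 1 to 3 and at 0.01, -0.45 and -0.06 in knockdown 1 to 3. Ctrl 1, knockdown 1 and knockdown 3 were thus within 0.1 of each other. The 5 members that were not tested (Rpl9-ps1, Rpl39l, Rpl10l, Rpl36-ps4 and Rpl13a-ps1) had no count in any library.

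How far a member deviated went with its coding length, which was not part of how members were chosen. In Ctrl 2 the median deviation was 2.997 for the 11 members with a coding sequence of up to 300 bases, 2.97 for the 31 above that and up to 450, 2.20 for the next 20 up to 600, 1.90 for the next 21 up to 900 and 0.87 for the 4 longer ones. Ctrl 3 showed the same order at 1.17, 0.76, 0.24, 0.22 and 0.14. Knockdown 2 ran the other way, at -0.64, -0.59, -0.39, -0.31 and -0.08. Over 87 members with a known coding length, Pearson's r between log2 coding length and the deviation was -0.55 in Ctrl 2, -0.59 in Ctrl 3 and 0.41 in knockdown 2 (Spearman's rho -0.65, -0.71 and 0.51). In Ctrl 1, knockdown 1 and knockdown 3 Pearson's r was 0.09, 0.15 and -0.03, and Spearman's rho 0.20, 0.24 and -0.29. These correlations are across genes of the same libraries, which are not independent replicates, and are given as a description.

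**Figure D2:**
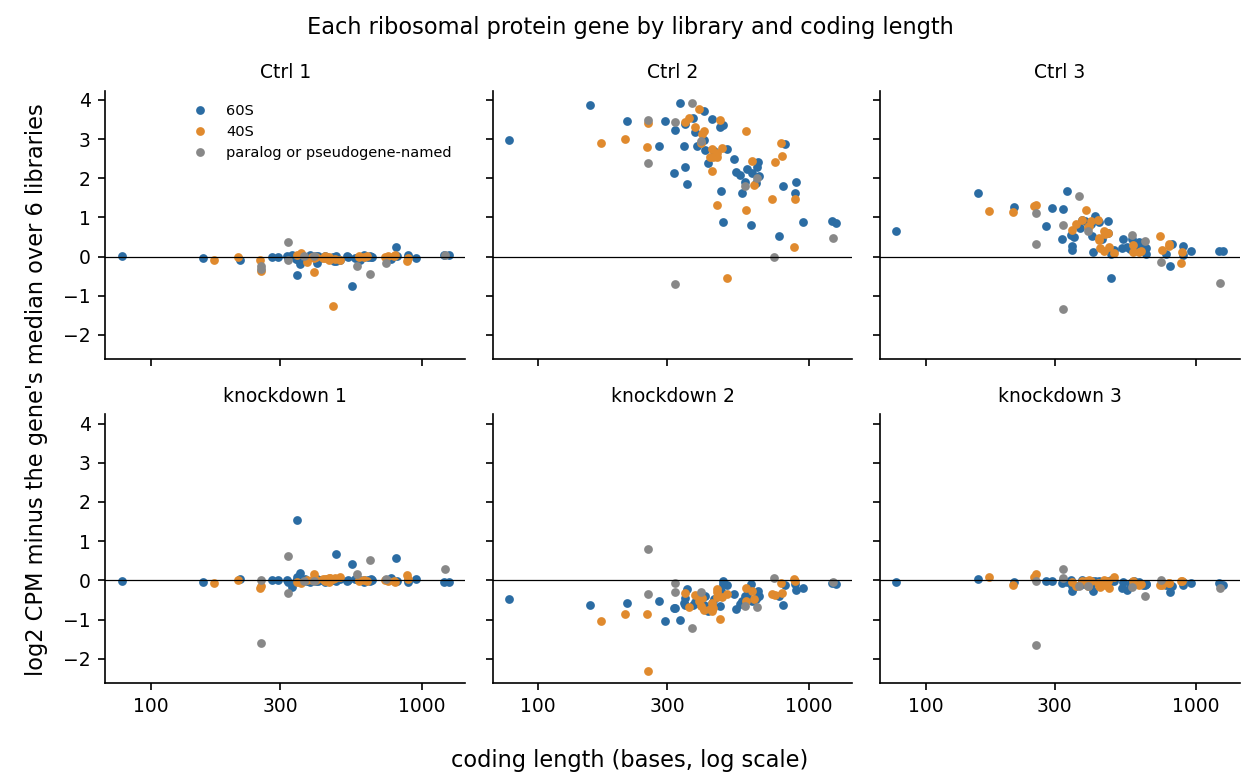
Each point is a ribosomal protein gene, with its coding length in bases on a log scale (x axis) and its log2 CPM minus its own median over 6 libraries (y axis), in a panel per library. Points slope down with length in Ctrl 2 and Ctrl 3, slope up in knockdown 2 and lie mostly near 0 in the other 3 libraries, where Spearman's rho is between -0.29 and 0.24.

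Other short genes followed the same slope at a smaller size. Protein-coding genes outside the family deviated in Ctrl 2 by a median of 1.56 (up to 300 bases, n = 256), 1.08 (to 450, n = 572), 0.40 (to 600, n = 736), 0.12 (to 900, n = 1719) and -0.11 (over 900, n = 9189). In each length class the ribosomal protein genes stood further from 0 in Ctrl 2 than the other genes did. Ctrl 2 also had the fewest genes with a count and the highest mitochondrial share, and their part in these deviations was not tested. In bulk RNA, less mRNA per cell and fewer cells that make it cannot be told apart.

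In the comparison of knockdown with control over all 6 samples, no member passed the threshold. The test was edgeR's quasi-likelihood F-test with Benjamini-Hochberg adjustment over 15307 genes, at an adjusted p under 0.05. It called 0.0588% of all genes higher and 0.00653% lower in knockdown, and 0 of 88 members in either direction. At an unadjusted p under 0.05, 32 members were lower and 0 higher, beside 1018 and 1144 of all genes. DESeq2, which called 1.55% of 14089 genes with an adjusted p higher and 0.958% lower, called 6 members lower and 0 higher. The log2 fold change was negative in 82 of 88 members, with a median of -1.64 against -0.01 over all genes. The smallest adjusted p of a member was 0.329. For the 60S genes the median was -1.45 (45 of 46 negative) and for the 40S genes -1.75 (29 of 31 negative).

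Without Ctrl 2 the members remained below the threshold and the difference shrank. Over 15709 genes, edgeR's quasi-likelihood F-test now called 1.11% higher and 0.675% lower, but again 0 of 88 members in either direction. At an unadjusted p under 0.05, 46 members were lower and 1 was higher, beside 1622 and 1498 of all genes. DESeq2 without Ctrl 2, which called 3.93% of 12459 genes with an adjusted p higher and 2.65% lower, called 3 members lower and 0 higher. The log2 fold change was negative in 81 members and its median was -0.36, against -0.02 over all genes. The medians were -0.32 for 60S genes (43 of 46 negative) and -0.44 for 40S genes (30 of 31 negative). Leaving out knockdown 2 as well, the median was -0.26 with 77 of 88 negative, and edgeR called 1 member lower and 0 higher, beside 0.245% and 0.517% of 15481 genes. By coding length class the medians without Ctrl 2 were -0.95, -0.57, -0.26, -0.22 and -0.16 from short to long, where other protein-coding genes had -0.26, -0.16, -0.08, -0.05 and 0.01.

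**Figure D3:**
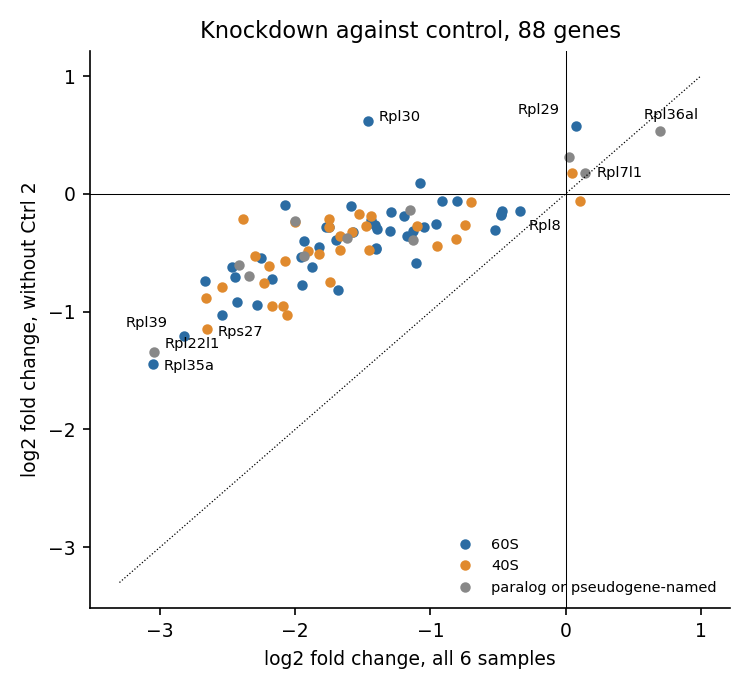
Log2 fold change of knockdown against control for each of 88 ribosomal protein genes, over all 6 samples (x axis) and without Ctrl 2 (y axis), with the dotted line marking equality. Nearly all points lie left of 0 and above the line, and the median moves from -1.64 to -0.36.

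Sets of libraries that do not overlap give a view without a test, although the CPM values still depend on the TMM scaling. Every control library was above every knockdown library in CPM for 30 of 88 members (34.1%), where 10.7% of all genes showed this. The opposite order held for 1 member (1.14%) beside 14.7% of all genes. The 30 members included 17 60S genes, 10 40S genes, the paralog Rpl22l1 and the pseudogene-named Rps12-ps3 and Rpl27-ps3, and the 1 was the paralog Rpl7l1. Since Ctrl 1, knockdown 1 and knockdown 3 were close together, these counts include small differences.

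Among large subunit genes, Rpl35a, Rpl39 and Rpl32 had the most negative log2 fold changes over all samples. Rpl35a (ENSMUSG00000060636, GRCm38 chromosome 16, 33056453 to 33060189), a small 60S protein whose gene is mutated in some patients with Diamond-Blackfan anaemia, stood at 36.1, 534 and 112 CPM in Ctrl 1 to 3 and 30.9, 17.2 and 33.9 CPM in knockdown 1 to 3. Every control value was above every knockdown value, but Ctrl 1 by little. Its log2 fold change was -3.05 ± 0.97 (SE, adjusted p = 0.329) over all samples and -1.45 ± 0.42 (SE, adjusted p = 0.127) without Ctrl 2.
Rpl39, a very small protein at the exit of the peptide tunnel, stood at 214, 3241 and 679 CPM in Ctrl 1 to 3 and 217, 142 and 226 CPM in knockdown 1 to 3. The groups overlapped, since knockdown 1 and 3 were slightly above Ctrl 1. Knockdown against control gave a log2 fold change of -2.82 ± 0.95 (SE, adjusted p = 0.339) and, without Ctrl 2, -1.20 ± 0.39 (SE, adjusted p = 0.156). For Rpl32, another 60S protein, the values were 615, 8026 and 1078 CPM in Ctrl 1 to 3 and 601, 364 and 563 CPM in knockdown 1 to 3, with no overlap and a log2 fold change of -2.67 ± 0.99 (SE, adjusted p = 0.347) or -0.74 ± 0.25 (SE, adjusted p = 0.162) without Ctrl 2.

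Among small subunit genes the most negative log2 fold changes were those of Rps15a and Rps27 over all samples and of Rps27 and Rps21 without Ctrl 2. Rps15a, a 40S core protein, measured 316, 4344 and 729 CPM in Ctrl 1 to 3 and 319, 221 and 313 CPM in knockdown 1 to 3, and Ctrl 1 lay between knockdown values. The log2 fold change of knockdown against control was -2.66 ± 0.95 (SE, adjusted p = 0.344), and -0.88 ± 0.29 (SE, adjusted p = 0.161) without Ctrl 2. Rps21, a small protein of the 40S subunit, measured 212, 1585 and 552 CPM in Ctrl 1 to 3 and 197, 125 and 243 CPM in knockdown 1 to 3, with knockdown 3 above Ctrl 1. Its fold change on the log2 scale was -2.06 ± 0.72 (SE, adjusted p = 0.339) over all samples and -1.03 ± 0.37 (SE, adjusted p = 0.177) without Ctrl 2.

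The ribosomal stalk, on which the elongation factors act, had a long and a short kind of member. Rplp0, its base, stood at 1569.5, 2942 and 1757 CPM in Ctrl 1 to 3 and 1622, 1402 and 1513 CPM in knockdown 1 to 3. The log2 fold change of knockdown against control was -0.47 ± 0.26 (SE, adjusted p = 0.397) and -0.15 ± 0.08 (SE, adjusted p = 0.347) without Ctrl 2. Rplp1, the acidic protein with the highest level of all core members per length (2023 CPM per kb of transcript, the geometric mean over 6 libraries), stood at 708, 5196 and 1073 CPM in Ctrl 1 to 3 and 732, 492 and 745 CPM in knockdown 1 to 3. Its partner Rplp2 stood at 431, 2199 and 511 CPM in Ctrl 1 to 3 and 477, 295 and 409.5 CPM in knockdown 1 to 3. Log2 fold changes over all samples were -1.83 ± 0.76 (SE) for Rplp1 and -1.41 ± 0.66 (SE) for Rplp2, and without Ctrl 2 they were -0.45 ± 0.20 (SE) and -0.27 ± 0.17 (SE). In both fits Rplp0, with a coding sequence of 954 bases, had the smallest difference, and Rplp1 and Rplp2 have 345 and 348 bases. For all 3 genes at least 1 knockdown library was above Ctrl 1.

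Rpl5 and Rpl11 bind 5S ribosomal RNA, and the free particle restrains Mdm2 and so stabilizes p53. Rpl5 stood at 761, 2745 and 887 CPM in Ctrl 1 to 3 and 708, 622 and 675 CPM in knockdown 1 to 3, without overlap. Its log2 fold change was -1.13 ± 0.50 (SE, adjusted p = 0.357) and -0.31 ± 0.09 (SE, adjusted p = 0.118) without Ctrl 2, the smallest adjusted p of any member in that fit, and DESeq2 without Ctrl 2 called it lower. Rpl11 stood at 489, 2192 and 669 CPM in Ctrl 1 to 3 and 494, 296 and 479 CPM in knockdown 1 to 3, with knockdown 1 just above Ctrl 1. Knockdown against control gave a log2 fold change of -1.40 ± 0.59 (SE, adjusted p = 0.355) and -0.46 ± 0.21 (SE, adjusted p = 0.266) without Ctrl 2.

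The most abundant core members per length after Rplp1 were Rpl41 and Rpl13. Rpl41, the shortest of all members (78 coding bases), stood at 755, 5865 and 1174 CPM in Ctrl 1 to 3 and 741, 537 and 725 CPM in knockdown 1 to 3, without overlap between the groups. Its log2 fold change was -1.96 ± 0.78 (SE, adjusted p = 0.352) and -0.54 ± 0.19 (SE, adjusted p = 0.171) without Ctrl 2. With an offset for coding length over all samples, the log2 fold change of Rpl41 was 0.030. Rpl13, a 60S protein of 636 coding bases, stood at 1170.1, 4353 and 1464 CPM in Ctrl 1 to 3 and 1180.3, 844 and 1075 CPM in knockdown 1 to 3, with knockdown 1 above Ctrl 1. Knockdown against control gave a log2 fold change of -1.17 ± 0.51 (SE, adjusted p = 0.357) and -0.36 ± 0.14 (SE, adjusted p = 0.209) without Ctrl 2.

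Functional sites of the ribosome differed little in direction. Of 7 tunnel-exit proteins, 7 had a negative log2 fold change over all samples (median -2.25) and 6 without Ctrl 2 (median -0.62). Of 5 proteins at the mRNA channel, 4 were negative in each fit, with medians of -1.75 and -0.53. Of 11 genes linked to Diamond-Blackfan anaemia, an inherited failure of red cell production, 10 were negative over all samples (median -2.001) and 11 without Ctrl 2 (median -0.47). None of these genes passed the threshold in edgeR in either fit.

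The paralogs, which stand in for or accompany a core protein in some tissues, differed from each other in the sign of the log2 fold change. Rpl22l1, the paralog of Rpl22, stood at 20.1, 303 and 57.9 CPM in Ctrl 1 to 3 and 19.7, 8.57 and 17.9 CPM in knockdown 1 to 3. Groups did not overlap, and the log2 fold change was -3.04 ± 1.01 (SE, adjusted p = 0.339) over all samples and -1.35 ± 0.43 (SE, adjusted p = 0.152) without Ctrl 2. Rpl7l1, a nucleolar relative of Rpl7 needed for 60S assembly, went the other way at 102, 113 and 103 CPM in Ctrl 1 to 3 and 117, 119 and 116 CPM in knockdown 1 to 3, with every knockdown value above every control value. The log2 fold change of knockdown against control was 0.14 ± 0.07 (SE, adjusted p = 0.383) and 0.18 ± 0.06 (SE, adjusted p = 0.167) without Ctrl 2, and only limma with sample quality weights placed it past the threshold (adjusted p = 0.038). That fit gave Ctrl 1 to 3 weights of 0.621, 0.101 and 3.19, so its control side rested mostly on Ctrl 3. It called 8.67% of all genes higher and 6.34% lower, and 1 member higher and 17 lower. Rpl36al and Rpl3l had few reads, with 4 to 22 counts for Rpl36al and 14 to 30 counts for Rpl3l in each library. Their log2 fold changes were 0.70 ± 0.63 (SE) and 0.02 ± 0.42 (SE), and 0.53 ± 0.62 (SE) and 0.31 ± 0.40 (SE) without Ctrl 2, none past the threshold.

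The 6 members that DESeq2 called lower over all samples were Rpl35a, Rpl36a, Rpl37, Rpl38, Rpl39 and Rps28. All 6 have a coding sequence of at most 333 bases.

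For some members, pseudogene rows of the count table hold more counts than the gene's own row. Pseudogene rows of any type were matched to members by sequence. Of these, 323 rows with counts shared at least 50% of their 25-base words with a member's transcript. They belonged to 70 members. For 10 members the copies held more counts than the gene itself: Rpl29 (98.2% of the summed counts), Rpl34 (98.1%), Rps10 (97.8%), Rps2 (97.3%), Rpl30 (93.9%), Rpl24 (84.6%), Rpl17 (81.0%), Rpl36al (65.02%), Rpl35a (63.1%) and Rpl21 (56.0%). Rpl24, Rpl29 and Rps10 were the 3 lowest core members per length (2.85, 2.98 and 5.42 CPM per kb), while Rplp1, Rpl41 and Rpl13 were the 3 highest (2023, 1966 and 1813 CPM per kb).

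Rpl30, a 60S protein, shows how close such copies are. Its coding sequence of 348 bases differs from the processed pseudogene Gm12191 (GRCm38 chromosome 11, 49678710 to 49679057) at 1 base. Bases 66 to 125 of the coding sequence are shown first in the gene and then in Gm12191, 5' to 3', with the differing base of the copy in capitals.
Rpl30: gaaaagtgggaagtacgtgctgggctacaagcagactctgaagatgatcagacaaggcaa
Gm12191: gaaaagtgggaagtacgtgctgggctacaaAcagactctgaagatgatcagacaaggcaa
The row of Rpl30 held 267, 2472 and 415 counts in Ctrl 1 to 3 and 1035, 268 and 296 counts in knockdown 1 to 3, with knockdown 1 far above the other knockdown libraries. With its copies the sums were 6854, 41225 and 12675 in Ctrl 1 to 3 and 6920, 4162 and 6383 in knockdown 1 to 3. The sums put the libraries in the order seen for other members, with Ctrl 2 and Ctrl 3 highest and knockdown 2 lowest. The log2 fold change without Ctrl 2 was 0.62 ± 0.55 (SE) for the row and -0.78 for the sum, and over all samples -1.46 ± 1.11 (SE) and -2.24, none past the threshold of edgeR.
Rps2, a 40S protein near the mRNA entry, stood at 16.8, 21.8 and 16.4 CPM in Ctrl 1 to 3 and 20.2, 18.6 and 17.9 CPM in knockdown 1 to 3 in its own row. Its groups overlapped and Ctrl 2 was again highest. Rpl29, a 60S protein, stood at 1.74, 3.54 and 1.29 CPM in Ctrl 1 to 3 and 3.06, 1.88 and 1.92 CPM in knockdown 1 to 3, and Rps10, a 40S protein, at 4.94, 3.54 and 5.54 CPM in Ctrl 1 to 3 and 5.54, 4.12 and 5.53 CPM in knockdown 1 to 3.
The log2 fold changes of the own rows of Rpl29, Rps10 and Rps2 were 0.08 ± 0.44 (SE), 0.11 ± 0.23 (SE) and 0.05 ± 0.14 (SE) over all samples and 0.58 ± 0.30 (SE), -0.06 ± 0.18 (SE) and 0.18 ± 0.10 (SE) without Ctrl 2. Summed with copies, the values were -1.61 for Rpl29, -1.44 for Rps10 and -0.23 for Rps2 over all samples, and -0.32, -0.30 and -0.14 without Ctrl 2. Over all 88 members the summed counts gave a median of -1.73, with 86 negative, and without Ctrl 2 a median of -0.38 with 85 negative.

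Rps27 and Rps27rt could not be told apart by coding sequence. Rps27 (40S, GRCm38 chromosome 3, 90212522 to 90213651, minus strand) and Rps27rt, a retrotransposed copy (chromosome 9, 114982366 to 114982739, minus strand), had the same 255 bases, so that sequence is printed once. Rps27l (chromosome 9, 66946086 to 66949516, plus strand), a paralog known as a p53 target, differed from them at 61 bases (76.1% identity). Capitals in Rps27l mark the bases that differ from Rps27.
Rps27 and Rps27rt: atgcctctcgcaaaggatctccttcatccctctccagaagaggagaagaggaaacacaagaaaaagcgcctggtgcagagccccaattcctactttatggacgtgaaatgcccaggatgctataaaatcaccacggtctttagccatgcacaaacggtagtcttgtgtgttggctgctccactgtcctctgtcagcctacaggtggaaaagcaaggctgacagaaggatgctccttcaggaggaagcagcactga
Rps27l: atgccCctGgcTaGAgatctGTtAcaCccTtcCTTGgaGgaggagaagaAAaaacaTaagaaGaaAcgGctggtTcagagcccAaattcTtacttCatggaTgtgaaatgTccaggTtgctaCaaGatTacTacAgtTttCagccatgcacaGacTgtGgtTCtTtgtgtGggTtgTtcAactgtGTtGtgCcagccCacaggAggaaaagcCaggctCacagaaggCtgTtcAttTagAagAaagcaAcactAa
Rps27 held 6223, 54749 and 18587 counts in Ctrl 1 to 3 and 6984, 1597 and 8579 counts in knockdown 1 to 3. Rps27rt held 2543, 10569 and 3620 counts in Ctrl 1 to 3 and 995, 5360 and 962 counts in knockdown 1 to 3. The split between the rows turned over in knockdown 2, where Rps27rt took 77.0% of the joint counts, against 10.1% to 29.01% in the other 5 libraries. The joint counts were 8766, 65318 and 22207 in Ctrl 1 to 3 and 7979, 6957 and 9541 in knockdown 1 to 3, with Ctrl 2 and Ctrl 3 highest and knockdown 2 lowest. On the log2 scale the fold change was -2.65 ± 1.07 (SE, adjusted p = 0.352) for Rps27 and -1.61 ± 0.97 (SE, adjusted p = 0.423) for Rps27rt. Without Ctrl 2 these values were -1.15 ± 0.63 (SE, adjusted p = 0.345) and -0.37 ± 0.65 (SE, adjusted p = 0.79). Leaving out knockdown 2 as well, edgeR called Rps27rt lower, the only member so called, beside 0.245% of all genes. Rps27l stood at 98.2, 1279.7 and 248 CPM in Ctrl 1 to 3 and 115, 90.97 and 114 CPM in knockdown 1 to 3, with Ctrl 1 inside the knockdown range and a log2 fold change of -2.34 ± 0.90 (SE, adjusted p = 0.351), or -0.70 ± 0.30 (SE, adjusted p = 0.247) without Ctrl 2.

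**Figure D4:**
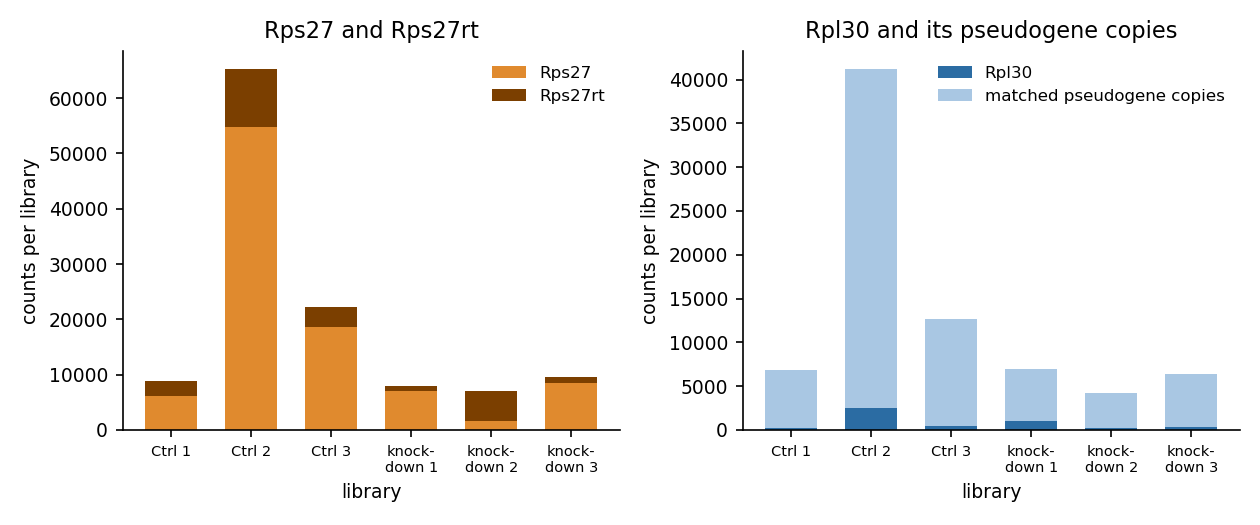
Counts (y axis) by library (x axis) for Rps27 stacked with its copy Rps27rt (left) and Rpl30 stacked with its matched pseudogene copies (right). Rps27rt takes 77.0% of the joint counts in knockdown 2, while the stacked heights keep Ctrl 2 and Ctrl 3 highest and knockdown 2 lowest.

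Fau and Rack1 encode ribosomal proteins but lie outside the naming rule. Fau, a ubiquitin-like fusion that yields a 40S protein, stood at 440.1, 2816 and 534 CPM in Ctrl 1 to 3 and 436, 265 and 383 CPM in knockdown 1 to 3 with a log2 fold change of -1.81 ± 0.75 (SE, adjusted p = 0.354), or -0.44 ± 0.18 (SE, adjusted p = 0.225) without Ctrl 2. Rack1, a signalling scaffold on the 40S head, stood at 766, 2199 and 805 CPM in Ctrl 1 to 3 and 763, 769 and 736 CPM in knockdown 1 to 3, where Ctrl 2 alone was high. Its log2 fold change was -0.73 ± 0.42 (SE, adjusted p = 0.41), and -0.06 ± 0.06 (SE, adjusted p = 0.605) without Ctrl 2. Both resembled the members in having their highest value in Ctrl 2.

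Genes that make ribosomes had mostly positive log2 fold changes, where the genes of the ribosome itself had mostly negative ones. Over all 6 samples 0 of 23 genes for 40S assembly, 0 of 30 for 60S assembly and 0 of 14 for RNA polymerase I passed the threshold of edgeR, with 13, 11 and 4 higher and 0 lower at an unadjusted p under 0.05, beside 1144 and 1018 of all 15307 genes. DESeq2 over all samples called 9, 6 and 2 higher and 0 lower, beside 1.55% higher and 0.958% lower over all genes. Without Ctrl 2, 8 of 23, 7 of 30 and 2 of 14 rose in edgeR's quasi-likelihood F-test, where 1.11% of all genes rose, and 0 fell. Without Ctrl 2 and knockdown 2, the counts dropped to 4 of 23, 4 of 30 and 0 of 14, where 0.517% of all genes rose. With only Ctrl 2 left out, median log2 fold changes were 0.32 for 40S assembly, 0.23 for 60S assembly and 0.18 for RNA polymerase I. Every knockdown library was above every control library, Ctrl 2 included, for 14 of 23, 12 of 30 and 6 of 14, beside 14.7% of all genes. Their coding sequences are longer, with medians of 1644, 1731 and 1334 bases, against 456 for the members. With an offset for coding length, fitted without Ctrl 2, 14, 11 and 3 rose, where 3.11% of all genes rose and 1.91% fell.

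Ddx21, a nucleolar RNA helicase that links RNA polymerase I and ribosome processing, stood at 134, 112 and 130.3 CPM in Ctrl 1 to 3 and 196, 208 and 204 CPM in knockdown 1 to 3. It rose without Ctrl 2 (log2 fold change 0.61 ± 0.07 SE, adjusted p = 0.00663), and over all samples the log2 fold change was 0.69 ± 0.09 (SE, adjusted p = 0.111). Gnl3 (nucleostemin), a nucleolar GTPase, stood at 61.6, 128 and 66.6 CPM in Ctrl 1 to 3 and 97.7, 103 and 102 CPM in knockdown 1 to 3 and rose without Ctrl 2 (log2 fold change 0.64 ± 0.07 SE, adjusted p = 0.00656). Ctrl 2 was above every knockdown value for Gnl3, and over all samples the log2 fold change was 0.24 ± 0.28 (SE, adjusted p = 0.674). Nop2, an rRNA methyltransferase, stood at 74.01, 61.8 and 79.5 CPM in Ctrl 1 to 3 and 109, 111 and 106 CPM in knockdown 1 to 3 and rose without Ctrl 2 (log2 fold change 0.50 ± 0.07 SE, adjusted p = 0.0142). Over all samples its log2 fold change was 0.60 ± 0.11 (SE, adjusted p = 0.178).

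On the 40S side Rrp12, an export factor for both subunits, stood at 21.3, 11.4 and 16.1 CPM in Ctrl 1 to 3 and 35.1, 37.3 and 33.8 CPM in knockdown 1 to 3 and rose without Ctrl 2 (log2 fold change 0.91 ± 0.12 SE, adjusted p = 0.0143). Heatr1, a subunit of the small-subunit processome that supports rRNA transcription, stood at 48.9, 43.9 and 46.2 CPM in Ctrl 1 to 3 and 69.4, 65.8 and 69.1 CPM in knockdown 1 to 3 and rose without Ctrl 2 (log2 fold change 0.51 ± 0.07 SE, adjusted p = 0.0155). Wdr43, of the same processome, stood at 60.4, 67.98 and 56.4 CPM in Ctrl 1 to 3 and 81.5, 86.8 and 80.9 CPM in knockdown 1 to 3 and rose in that fit too (log2 fold change 0.50 ± 0.07 SE, adjusted p = 0.0176). Over all samples the log2 fold changes were 1.12 ± 0.22 (SE, adjusted p = 0.207) for Rrp12, 0.55 ± 0.07 (SE, adjusted p = 0.111) for Heatr1 and 0.43 ± 0.09 (SE, adjusted p = 0.234) for Wdr43. None of the 3 had an overlap between control and knockdown libraries.

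The catalytic subunits of RNA polymerase I, which transcribes the rRNA precursor, also rose without Ctrl 2, but did not pass the threshold when knockdown 2 was left out as well. Polr1a stood at 104, 102 and 95.5 CPM in Ctrl 1 to 3 and 126, 130.4 and 139 CPM in knockdown 1 to 3 (log2 fold change 0.39 ± 0.08 SE, adjusted p = 0.0458), and Polr1b at 24.97, 20.9 and 23.1 CPM in Ctrl 1 to 3 and 33.1, 34.8 and 32.98 CPM in knockdown 1 to 3 (log2 fold change 0.48 ± 0.08 SE, adjusted p = 0.0336). With Ctrl 2 included, the values were 0.39 ± 0.08 (SE, adjusted p = 0.196) for Polr1a and 0.55 ± 0.09 (SE, adjusted p = 0.178) for Polr1b. Of 6 tested chaperones of ribosomal proteins, 0 passed over all samples and 2 rose without Ctrl 2, where 1.11% of all genes rose, and 0 passed without Ctrl 2 and knockdown 2. Grwd1, which escorts Rpl3, stood at 35.8, 29.6 and 27.9 CPM in Ctrl 1 to 3 and 48.1, 48.5 and 47.1 CPM in knockdown 1 to 3 (log2 fold change 0.58 ± 0.11 SE, adjusted p = 0.0403), with a log2 fold change of 0.62 ± 0.11 (SE, adjusted p = 0.178) over all samples. Ltv1, a factor of late 40S maturation that is also in the 40S assembly list, stood at 26.9, 54.4 and 27.8 CPM in Ctrl 1 to 3 and 40.02, 41.04 and 38.03 CPM in knockdown 1 to 3 (log2 fold change 0.53 ± 0.08 SE, adjusted p = 0.0178). Ctrl 2 was above every knockdown value for Ltv1, and over all samples its log2 fold change was 0.13 ± 0.28 (SE, adjusted p = 0.834).

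Of 28 translation initiation factors 1 rose and 0 fell without Ctrl 2 in edgeR, where 1.11% of all genes rose and 0.675% fell. In the same samples DESeq2 called 4 higher and 3 lower, beside 3.93% and 2.65% of all genes, and edgeR with the coding length offset 3 higher and 2 lower, beside 3.11% and 1.91%. Without Ctrl 2 and knockdown 2, edgeR called 0 of 28. The 1 that rose without Ctrl 2 was Eif3b, a scaffold subunit of the factor that brings the 40S subunit to mRNA, at 289, 259 and 289.9 CPM in Ctrl 1 to 3 and 375, 370.5 and 359.9 CPM in knockdown 1 to 3 (log2 fold change 0.34 ± 0.06 SE, adjusted p = 0.0419), with a log2 fold change of 0.40 ± 0.09 (SE, adjusted p = 0.243) over all samples. Of 15 elongation factors and other TOP mRNAs none passed the threshold of edgeR in either fit (medians -0.35 and -0.13), with 0 and 7 lower at an unadjusted p under 0.05, beside 1018 of 15307 and 1622 of 15709 genes. DESeq2 without Ctrl 2 called 4 of them lower, where it called 2.65% of all genes lower, and edgeR with the coding length offset called 2 lower, where it called 1.91%. In the list of mTORC1, LARP1 and MYC genes 1 of 15 rose and 0 fell without Ctrl 2 in edgeR, beside 1.11% and 0.675% of all genes. DESeq2 without Ctrl 2 called 1 higher and 1 lower, beside 3.93% and 2.65%, and limma with quality weights also 1 and 1, beside 8.67% and 6.34%. The gene that rose in edgeR was Myc, a transcription factor known to drive ribosome biogenesis, at 66.4, 62.4 and 65.8 CPM in Ctrl 1 to 3 and 99.7, 117 and 93.5 CPM in knockdown 1 to 3 (log2 fold change 0.64 ± 0.10 SE, adjusted p = 0.0211), and its knockdown values were all above its control values. Over all samples its log2 fold change was 0.67 ± 0.10 (SE, adjusted p = 0.144).

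**Figure D5:**
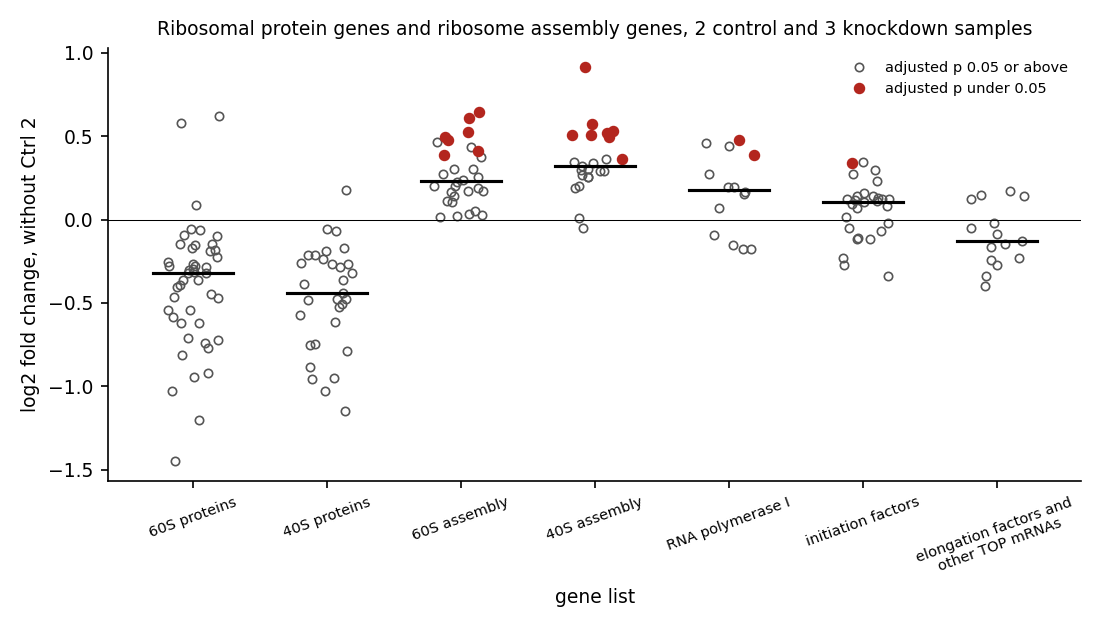
Log2 fold change of knockdown against control without Ctrl 2 (y axis, 2 control and 3 knockdown samples) for each gene of the listed groups (x axis), with bars at the medians and filled points at an adjusted p under 0.05. The 60S and 40S protein genes have medians of -0.32 and -0.44 and no filled point, while 7 of 30 and 8 of 23 assembly genes are filled, all above 0. Leaving out knockdown 2 as well, 4 of 30 and 4 of 23 passed.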

How the data were processed

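Total RNA of 6 MLE12 samples was sequenced on a Illumina HiSeq instrument (paired ends) after preparation with a NEBNext Ultra RNA kit, which as labelled does not mark strand, so reads of overlapping antisense genes cannot be told apart. The deposited table holds whole-number counts per gene, which the authors made from reads aligned to mm10. The submitters' processing notes name HISAT2 2.0.5, StringTie 1.3.3b and featureCounts 1.5.0-p3. Multi-mapping and strand settings are not given in the sources used here. The authors also deposited FPKM values, used only in an alternative fit. Library totals were 27273502 to 28535653 counts, and 0 columns of per-sample values were unused. The deposited table has no row without a gene.

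Groups were taken from the labels. Counts were fitted in R 4.3.3 with edgeR 4.0.16 (filterByExpr with its defaults, TMM scaling, glmQLFit and glmQLFTest, all 6 samples, no covariate), with Benjamini-Hochberg adjustment over all tested genes. SE is the log2 fold change divided by the square root of F. CPM values are TMM-scaled. DESeq2 1.42.0 and limma 3.58.1 with sample quality weights were alternatives, with other scalings, count filters, FPKM with pseudocounts of 1 and 0.1, a replicate block, a gene length offset and the omission of each replicate. Offsets for coding length (loess, span 0.4), the omission of Ctrl 2 and knockdown 2 together, library size scaling without Ctrl 2 and the addition of pseudogene counts were chosen after seeing the data. No 2 libraries were repeats of each other (chi-square per degree of freedom of 5.67 or more).

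Members, gene lists and tests were chosen with earlier results of these data known. Genes were named by a rule: members past the threshold, tested paralogs, stalk and 5S genes, the 3 highest and 3 lowest core members per length, the 5 most positive and 5 most negative log2 fold changes with and without Ctrl 2, up to 3 genes per other list past the threshold without Ctrl 2 and, outside the naming rule, Fau and Rack1. Some genes that the rule or the counts of calls include are not reported here. Members named in a count of calls or as having mostly pseudogene counts were chosen after their values were seen. Coding lengths came from GENCODE M21 (GRCm38), in which 89 of 93 members have the coordinates of the count table. On simulated counts for all 6 samples (14959 genes), 33 of 100 changes of 1 on the log2 scale and 91 of 100 changes of 2 were recovered, with 8 false calls. Without Ctrl 2 (15398 genes) 90 and 100 of 100 were recovered, with 18 false calls. Figures were drawn with matplotlib 3.10.9 in Python 3.11.15.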

Additional observations from a re-analysis of the deposited data

How the results depend on the processing

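Ctrl 2 set the size of the result. The median log2 fold change of the members ranged from -2.04 to -0.36 when each replicate was left out in turn, and -0.36 was the value without Ctrl 2. It was -0.50 with sample quality weights, -0.36 in DESeq2 without Ctrl 2, -0.35 with library size scaling without Ctrl 2, -0.38 with pseudogene counts added without Ctrl 2, and -0.26 both with a coding length offset without Ctrl 2 and without Ctrl 2 and knockdown 2 together. With the coding length offset over all 6 samples it was -1.05. Members called lower numbered 6 in DESeq2, 3 in DESeq2 without Ctrl 2, 17 with quality weights and 1 (Rps27rt) without Ctrl 2 and knockdown 2, and members called higher numbered 1 with quality weights. Of 87 values of the main results, 75 did not change direction and stayed within 1.5 times or the spread of replicates. Many of these are counts of called members that were 0 and so have no direction. The spread of replicates includes Ctrl 2, so the tally does not measure robustness to it. The difference in the share of counts was -4.49 percentage points, and -6.55 to -1.06 when each replicate was left out. Library size scaling moved the median of all genes to 0.16 and that of the members to -1.23.

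No source states that the replicate numbers pair the samples. The correlations of same-numbered deviations were -0.155, -0.092 and 0.043, which cannot decide this with 3 samples per group. With a replicate block 0 members passed and the median was -1.07.

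Of 983 values of 38 named genes, 27 changed sign, and none of these was past the threshold. With pseudogene counts added, the values were -1.61 for Rpl29, -1.44 for Rps10, -0.23 for Rps2 and -0.65 for Rpl36al, and without Ctrl 2 as well -0.32 for Rpl29, -0.30 for Rps10 and -0.14 for Rps2. Rpl30 was 0.62 without Ctrl 2, and in that sample set 0.63 in DESeq2, 0.63 with library size scaling and 0.77 with the coding length offset. It was 0.95 without Ctrl 2 and knockdown 2, and 0.40 with quality weights. Rps10 was -0.059 without Ctrl 2, -0.052 in DESeq2 and -0.047 with library size scaling in that set, and -0.034 with quality weights. With the coding length offset Rpl41 was 0.030. When replicates were left out, the values ranged from -0.21 to 0.70 for Rpl29, from -2.38 to 0.95 for Rpl30, from -0.27 to 0.35 for Rpl3l, from -0.059 to 0.24 for Rps10, from -0.039 to 0.19 for Rps2 and from -0.045 to 0.53 for Ltv1. The cause of these changes was not tested, except that added counts of copies change a row by construction. Depth limits the rows with few counts, such as Rpl36al and Rpl3l.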

Other observations

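The pseudogene copies of ribosomal protein genes, taken as a class of their own, held 0.463%, 1.76% and 0.662% of all counts in Ctrl 1 to 3 and 0.444%, 0.351% and 0.425% in knockdown 1 to 3. Ctrl 2 and Ctrl 3 were highest and knockdown 2 lowest, the order seen in the genes themselves. The 5 tested members with a pseudogene name had negative log2 fold changes in edgeR in 5 of 5 cases, with a median of -1.93 over all samples and -0.39 without Ctrl 2, and none passed the threshold.

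Of the other cell types checked, the 4 fibroblast markers summed to 22.5 to 25.6 CPM in the control and 20.2 to 26.7 CPM in the knockdown libraries. The 4 leukocyte markers summed to 1.74 to 2.41 CPM in the control and 2.44 to 2.92 CPM in the knockdown libraries. Neither sum was highest in Ctrl 2.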
